A study of Arabidopsis thaliana with 4 samples.

Results

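The genes described here encode proteins of the cytosolic ribosome of Arabidopsis thaliana. They were 39 loci chosen by their locus identifiers, 27 of the large subunit and 12 of the small subunit counting the ribosome-associated scaffold RACK1A, among the 33557 loci listed in every library. All 39 were above 0 in every library and passed the filter on low values, a mean of at least 1 FPKM. FPKM, a fragment count divided by transcript length and library depth, is a level per length, so that genes can be compared within a library.

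The cytosolic ribosome is built from 4 kinds of ribosomal RNA and a set of proteins, each of which is encoded in plants by a small family of related genes. Ribosomal protein mRNAs are among the most abundant of growing tissue, and their genes are transcribed together through shared promoter elements, among them the telo-box and the site II element. Loss of a single copy in Arabidopsis is known to alter leaf shape, gynoecium development or embryo survival, depending on the gene.

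Poly(A) RNA was sequenced from 14-day-old seedlings kept in long days (16 h light, 8 h dark). The 2 groups, each of 2 libraries, were the wild-type accession Col-0 and mos2-2, a T-DNA insertion line (SALK_033856) in the Col-0 background. MOS2 is an RNA-binding protein with G-patch and KOW motifs, and the study asked what its loss does to microRNA maturation. The mutant is represented by a single insertion allele, and no label states that replicates were grown or harvested separately, so the p-values measure library-to-library spread that may be technical only. In such bulk RNA, fewer cells of a type and less RNA per cell cannot be told apart. Below, values in all 4 libraries stand in the order Col-0 replicate 1, Col-0 replicate 2, mos2-2 replicate 1 and mos2-2 replicate 2.

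MOS2 itself was at 50.3, 36.9, 2.16 and 1.16 FPKM, 26.3-fold lower in mos2-2 on the means (log2 difference of FPKM + 1 of -4.08, SE 0.31, limma adjusted p = 0.0727). Over all genes, 12 of 19236 tested passed an adjusted p of 0.05, and the median log2 difference was -0.091. The summed FPKM of the 4 libraries ran from 1350292 to 1522916, with 22411 to 23009 loci above 0. The 5.8S ribosomal RNA locus AT3G41979 was at 23211, 20656, 73081 and 76744 FPKM, and its part in the results below was not tested. Shoot markers were high in every library (RBCS1A, the Rubisco small subunit, at 8900 to 15661 FPKM) and all 3 seed markers were at 0. Of 4 root markers, SHR and SCR were at 3.38 to 9.08 FPKM, the root-hair gene EXPA7 was at 0 in every library and the root-hair gene COBL9 reached at most 0.209 FPKM. The root-hair markers were thus absent or nearly so in RNA labelled as seedling, and which parts of the seedling were harvested was not stated in the labels.

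The promoters of the L3 paralogues and of RPL24B are shown because the transcript ratios of the L3 and L24 pairs differed most between the genotypes among the pairs described below. Each is the 300 bases before the annotated gene start in TAIR10.1, read 5′ to 3′ on the gene's strand, so that no base of the annotated gene is included. Capitals mark the letters of the site II element, TGGGCC or TGGGCT on either strand, with the reverse strand read as GGCCCA or AGCCCA. None of these 3 windows held the telo-box letters AAACCCTA on either strand. RPL3A (AT1G43170) has its window at chr1:16266253-16266552 on the plus strand, with 3 site II elements, and RPL3B (AT1G61580) at chr1:22723153-22723452 on the minus strand, with 2. RPL24B (AT3G53020) has its window at chr3:19662026-19662325 on the minus strand, with 5 site II elements.
RPL3A: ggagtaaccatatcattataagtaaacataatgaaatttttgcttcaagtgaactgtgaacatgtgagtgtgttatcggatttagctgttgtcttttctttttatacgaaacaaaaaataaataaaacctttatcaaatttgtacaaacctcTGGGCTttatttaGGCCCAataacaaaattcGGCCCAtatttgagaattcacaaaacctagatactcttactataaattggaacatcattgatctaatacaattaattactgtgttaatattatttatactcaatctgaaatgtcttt
RPL3B: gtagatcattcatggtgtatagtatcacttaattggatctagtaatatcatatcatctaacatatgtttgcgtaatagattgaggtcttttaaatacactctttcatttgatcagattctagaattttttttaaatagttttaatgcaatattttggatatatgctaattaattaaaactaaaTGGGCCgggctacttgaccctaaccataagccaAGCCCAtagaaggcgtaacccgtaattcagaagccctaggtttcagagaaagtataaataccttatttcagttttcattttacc
RPL24B: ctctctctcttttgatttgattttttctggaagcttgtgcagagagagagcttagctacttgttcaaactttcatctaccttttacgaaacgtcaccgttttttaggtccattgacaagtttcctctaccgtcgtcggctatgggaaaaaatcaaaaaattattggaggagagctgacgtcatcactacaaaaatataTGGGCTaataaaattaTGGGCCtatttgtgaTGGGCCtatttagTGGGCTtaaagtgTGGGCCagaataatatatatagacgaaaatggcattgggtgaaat

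Site II letters stood in the 300-base windows of 26 of the 39 genes (66.7%), and telo-box letters in those of 5 (12.8%). Of the 26686 nuclear protein-coding genes, 21.01% held site II letters and 5.17% the telo-box in windows of the same length. The 187 other cytosolic ribosomal protein loci held them in 70.1% and 22.5%, and 28 nuclear genes for plastid ribosomal proteins in 28.6% and 14.3%. Both motifs stood before RPL13B, RPS5A and RPS21C, and neither before 11 genes, among them RPL23aA and RPL23aB, and RPS18A and RPS18C. RPL9B held 6 site II matches and RPL9C 5. The first letters of the site II matches lay 7 to 283 bases before the gene start, with a median of 64.

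**Figure D1:**
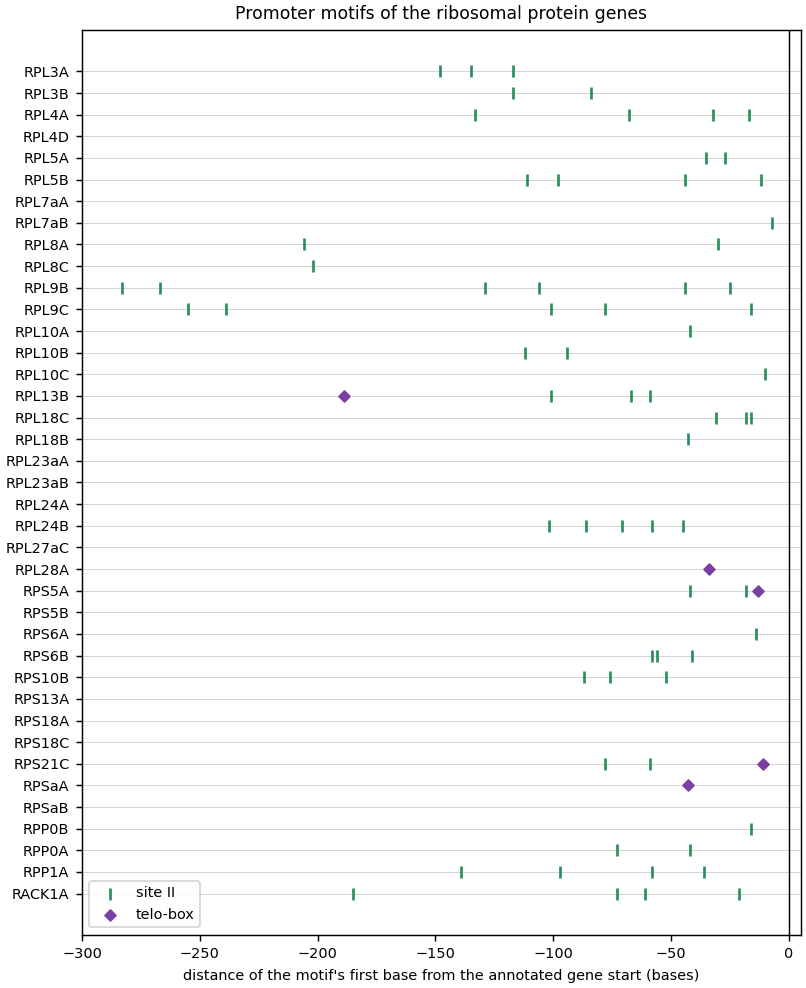
Position of site II (green bars) and telo-box (purple diamonds) letters in the 300 bases before the annotated start of each of the 39 genes, with the distance of the motif's first base from the start on the horizontal axis in bases. Site II letters stand in 26 windows and telo-box letters in 5, and RPL24B has 5 site II matches.

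The 39 genes were abundant. Their FPKM summed to 15506, 10891, 10757 and 14523 in the 4 libraries, or 1.15%, 0.782%, 0.775% and 0.954% of all FPKM. The 2 libraries of each genotype thus differed more in this sum than the genotypes did. Of the 39, 35 had a mean over 100 FPKM and 4 a mean under 25 FPKM. The 4 low genes, RPL3B, RPL10B, RPSaB and RPP0A, are each the minor copy beside an abundant paralogue. The most abundant gene was RPL27aC, a large-subunit protein, at 932.6, 695.7, 643.5 and 1112 FPKM. The next were RPL10A and RPP1A. RPL10A, which joins the large subunit late in its assembly, was at 909.3, 576.8, 587.8 and 890.9 FPKM. RPP1A, an acidic protein of the stalk that recruits translation factors, was at 852.3, 524.1, 613.9 and 943.4 FPKM.

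**Figure D2:**
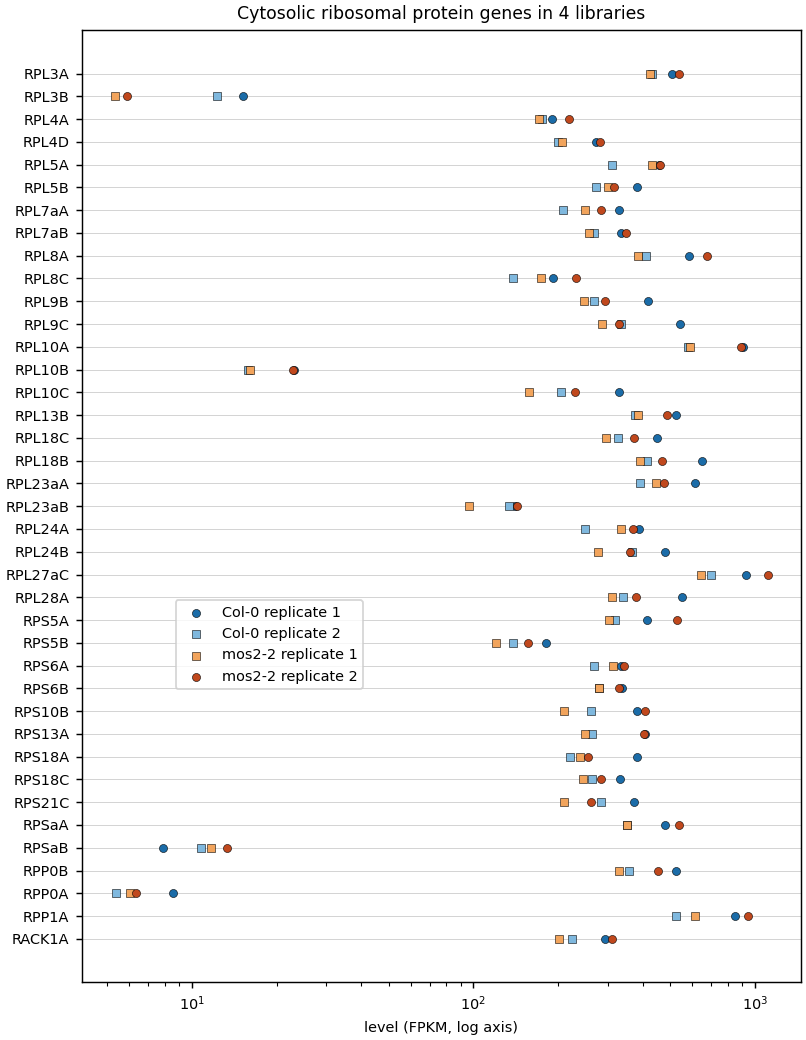
Level of each of the 39 genes in FPKM (log axis) in each of the 4 libraries, with circles for Col-0 replicate 1 and mos2-2 replicate 2 and squares for the other pair. For 34 genes both circles lie to the right of both squares, and 4 genes lie below 25 FPKM.

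Within each genotype, the genes stood higher together in the same library. Col-0 replicate 1 was above Col-0 replicate 2 for 38 of 39 genes, by a median ratio of 1.40 (range 0.734 to 1.73), with RPSaB as the exception. In the mutant, replicate 2 was above replicate 1 for 39 of 39, by a median ratio of 1.27 (range 1.05 to 1.94). Both held for 38 genes (97.4%), compared with 22.4% of all genes tested and 163 of the 177 other cytosolic ribosomal protein genes tested (92.1%). For 34 of the 39, Col-0 replicate 1 and mos2-2 replicate 2 were both above both other libraries. Col-0 replicate 1 was the highest library for 23 genes and mos2-2 replicate 2 for the other 16, while the lowest was mos2-2 replicate 1 for 24 and Col-0 replicate 2 for 14.

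Nuclear genes for the plastid ribosome did not share this order. All 28 were higher in Col-0 replicate 1 than in replicate 2, but 0 of 28 were higher in mos2-2 replicate 2 than in replicate 1. Median deviations from each gene's mean over the libraries, on the log2(FPKM + 1) scale, were 0.26, -0.21, -0.27 and 0.16 for the 39 cytosolic genes and 0.17, -0.37, 0.29 and -0.12 for the plastid ones. The deviation over all genes tested had medians of 0.13, -0.035, -0.0053 and -0.088. Of the 21 ribosome biogenesis genes tested, which make ribosomal RNA and assemble subunits in the nucleolus, 5 shared the order of both genotypes, as did 13 of 20 translation factor genes and 2 of 5 genes of the TOR pathway, the kinase pathway that couples nutrients to ribosome production.

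The 3 flower organ markers followed the same order of libraries within each genotype as the cytosolic ribosomal protein genes. So did RBCS1A, every detected root marker (SHR, SCR and COBL9) and most dividing and meristem cell markers, STM among them. This order was therefore not particular to the flower markers. LHCB1.3 and RCA of the shoot and KNOLLE of dividing cells did not share it. AP3, a petal and stamen identity factor, was at 11.7, 3.84, 1.38 and 6.66 FPKM. PI, its partner, was at 14.8, 4.31, 2.00 and 10.7 FPKM, and AG, a stamen and carpel identity factor, was at 3.23, 1.07, 0.784 and 2.98 FPKM. Their sum was 29.8, 9.23, 4.16 and 20.3 FPKM, so it was highest where the ribosomal protein genes were highest. The 7 markers of dividing and meristem cells summed to 98.6, 70.1, 66.8 and 68.1 FPKM, with WUS at 0 in 2 libraries and at most 0.198 FPKM. Root markers summed to 15.3, 12.02, 7.59 and 11.7 FPKM and shoot markers to 20956, 31328, 27621 and 38939 FPKM. The part of these differences in the levels of the ribosomal protein genes was not tested.

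**Figure D3:**
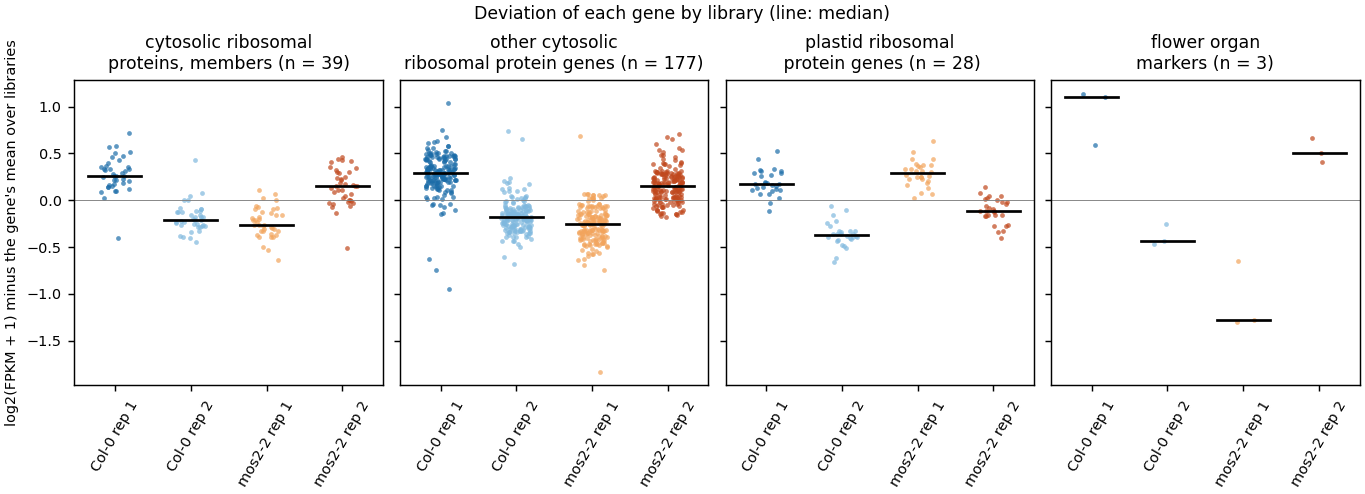
Deviation of log2(FPKM + 1) from each gene's own mean, by library, for the 39 genes, the 177 other cytosolic ribosomal protein genes tested, the 28 plastid ribosomal protein genes and 3 flower organ markers. Points are genes and lines are medians, which for the 39 genes are 0.26, -0.21, -0.27 and 0.16 from left to right. Root, shoot and dividing-cell markers, many with the same order as the flower markers, are not drawn.

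Between the genotypes, 0 of the 39 genes passed an adjusted p of 0.05 (limma, Benjamini-Hochberg over all 19236 genes, where 0.0624% passed). MOS2, 26.3-fold lower, did not pass either (limma adjusted p = 0.0727), so this count cannot show the 39 genes to be unchanged. Adjusted p-values of the 39 ran from 0.602 to 0.9996. At an unadjusted limma p under 0.05 there was 1 gene, RPL3B, beside 7.02% of all genes. Of the 39, 16 had a positive difference and 23 a negative one, with a median log2 difference of -0.039 beside -0.091 over all genes, of which 59.4% were below 0. The 27 large-subunit genes divided into 12 higher and 15 lower and the 12 others into 4 higher and 8 lower, with medians of -0.039 and -0.040. This division rested on single libraries: 31 genes were higher without Col-0 replicate 1 and 3 without Col-0 replicate 2, and 24 without mos2-2 replicate 1 and 5 without mos2-2 replicate 2. It also moved with scaling, from 16 higher to 24 under median-ratio scaling and 19 under quantile normalization.

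The ratio of the mutant mean to the wild-type mean was 0.409 to 1.34 over the 39 genes, with a median of 0.975, and 0.704 was the lowest without RPL3B. In 35 of 39 genes the gap between the 2 Col-0 libraries was larger than the difference between the genotype means. Both mutant libraries lay on one side of both wild-type libraries for 5 of 39 genes (12.8%), beside 37.8% of all genes tested. Of the 5, RPSaB was higher, beside 13.1% of all genes in that direction, and RPL3B, RPS21C, RPL9C and RPL24B were lower, beside 24.7%. Of these 5, RPL3B and RPS21C kept their groups apart under median-ratio scaling, quantile normalization and scaling to the other cytosolic ribosomal protein genes, RPSaB under all but the last, and RPL9C and RPL24B under all but median-ratio scaling.

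**Figure D4:**
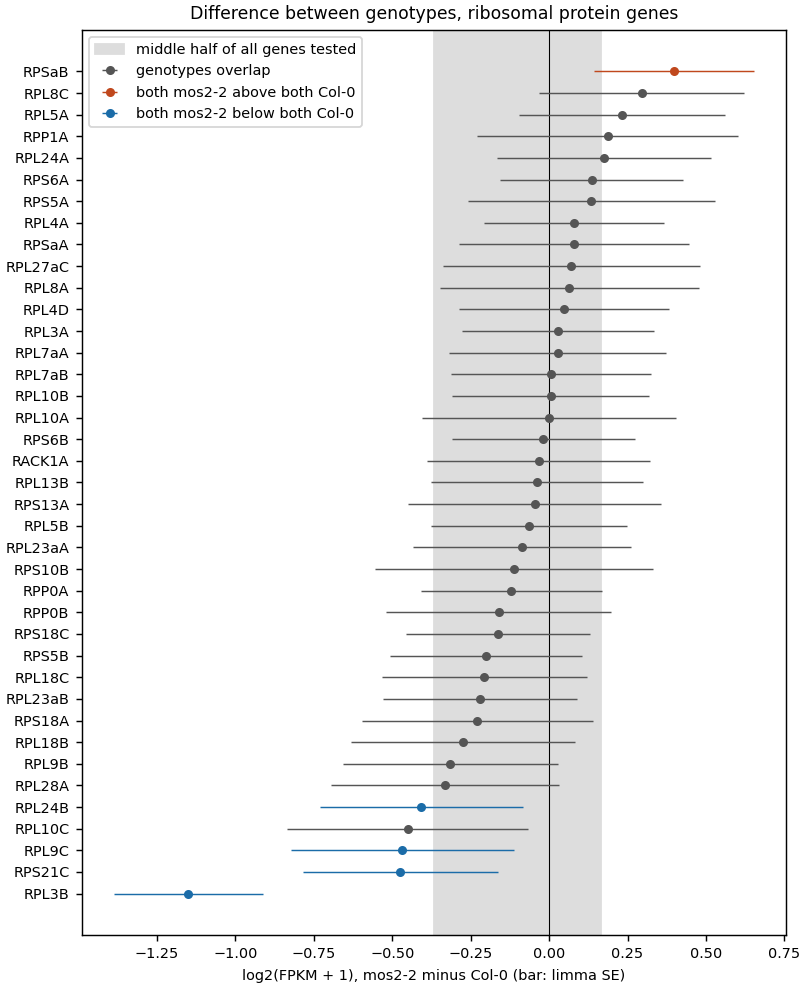
Difference of log2(FPKM + 1), mos2-2 minus Col-0, with its limma standard error as a bar, for each of the 39 genes, with the middle range (lower to upper quartile) of all 19236 genes tested in grey. RPL3B stands lowest at -1.15, and the other 38 lie between -0.47 and 0.40.

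RPL3B encodes the minor copy of protein L3, which reaches towards the peptidyl transferase centre, where peptide bonds are made. It was at 15.2, 12.3, 5.32 and 5.90 FPKM. Both mutant libraries were below both wild-type ones, with means of 13.7 ± 2.09 (SD, n = 2) in Col-0 and 5.61 ± 0.412 (SD, n = 2) in mos2-2. The log2 difference was -1.15 (SE 0.24, limma unadjusted p = 0.00505, adjusted p = 0.602), and it was negative in every alternative run, from -1.30 to -0.82, with adjusted p-values from 0.403 to 0.9999. These levels rested on an estimated 91, 118, 50 and 58 reads, with a counting error of up to 14.1% of the level. The gene lies at chr1:22720560-22723152 on the minus strand. Its abundant paralogue RPL3A (chr1:16266553-16268945, plus strand) was at 505.9, 431.2, 423.3 and 536.0 FPKM, with groups that overlapped (log2 difference 0.028, SE 0.31, limma adjusted p = 0.993).

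Proteins L4 and L23a lie at the tunnel through which the new chain leaves the ribosome. RPL4A was at 190.6, 175.8, 170.5 and 219.3 FPKM and RPL4D at 273.3, 199.3, 205.6 and 282.6 FPKM. RPL23aA was at 611.1, 390.9, 444.5 and 476.3 FPKM and RPL23aB at 140.3, 134.2, 96.6 and 143.0 FPKM. The genotypes overlapped for all of these. Protein L5 binds 5S ribosomal RNA. RPL5A, mutants of which have pointed leaves and enhance loss of leaf polarity, was at 458.0, 311.9, 430.6 and 459.0 FPKM, and RPL5B at 380.9, 271.6, 299.99 and 315.2 FPKM. The log2 difference was 0.23 (SE 0.33) for RPL5A and -0.065 (SE 0.31) for RPL5B, so neither exceeded its error.

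Protein L8 lies at the core of the large subunit. RPL8A was at 581.0, 410.0, 385.8 and 675.3 FPKM, and RPL8C at 192.3, 138.7, 173.4 and 232.1 FPKM. Protein L9 is encoded by RPL9B and RPL9C (chr1:12023225-12024783, plus strand), the latter known as PIGGYBACK2 from leaf polarity screens. RPL9C was at 540.3, 334.5, 286.5 and 329.4 FPKM, a log2 difference of -0.47 (SE 0.36, limma adjusted p = 0.814). Its closest levels across the genotypes, 334.5 and 329.4 FPKM, had counting errors of 2.23% and 2.22%. The separation of RPL9C is thus within counting error. RPL9B was at 416.8, 269.2, 247.8 and 292.3 FPKM. The coding sequences of this pair were 99.2% identical and their proteins 100%, and 55.7% of the 36-base stretches of RPL9B and 60.7% of those of RPL9C occur in another gene, so the split of reads between them is uncertain. The pair ends 144.5 and 132.3 kb before MOS2 on chromosome 1.

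Of the remaining large-subunit genes, RPL10C was at 329.3, 205.2, 157.0 and 229.6 FPKM, a log2 difference of -0.45 (SE 0.38, limma adjusted p = 0.827). RPL24B was at 480.6, 365.3, 277.6 and 359.1 FPKM. It encodes protein L24 at the face between the subunits and is known as SHORT VALVE1, which is needed for gynoecium patterning and for reinitiation after upstream open reading frames. Its mutant libraries were both below the wild-type ones, with a log2 difference of -0.41 (SE 0.32, limma adjusted p = 0.820). The closest levels of RPL24B across the genotypes, 365.3 and 359.1 FPKM, had counting errors of 2.33% and 2.32%. Its separation is thus within counting error. RPL24A was at 387.9, 249.6, 335.2 and 368.4 FPKM, with overlapping groups. RPL28A was at 550.4, 339.0, 311.7 and 377.0 FPKM, and RPL18B at 646.8, 414.1, 390.2 and 468.8 FPKM. In both, Col-0 replicate 1 stood above the other libraries, which lay closer to each other. RPL7aA, RPL7aB, RPL13B and RPL18C had log2 differences of -0.21 to 0.027, each smaller than its SE.

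In the stalk, RPP0B, the base to which the acidic proteins bind, was at 523.0, 356.1, 328.5 and 453.4 FPKM. Its minor copy RPP0A was at 8.56, 5.39, 6.05 and 6.33 FPKM. RPP1A had a log2 difference of 0.19 (SE 0.42). The genotypes overlapped for all of these stalk genes.

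Among the small-subunit genes, RPSaB, a homologue of the laminin receptor protein, was the 1 gene with both mutant libraries above both wild-type libraries. It was at 7.88, 10.7, 11.6 and 13.3 FPKM, with a log2 difference of 0.40 (SE 0.26, limma adjusted p = 0.795). These levels rested on an estimated 44, 96, 103 and 122 reads, with a counting error of up to 15.1% of the level. The closest levels across the genotypes, 10.7 and 11.6 FPKM, had counting errors of 10.2% and 9.87%, so this separation is within counting error. RPSaA, the abundant paralogue of RPSaB, was at 478.8, 352.2, 350.5 and 536.4 FPKM. RPS21C was at 373.0, 284.0, 209.3 and 261.7 FPKM, lower in both mutant libraries, with a log2 difference of -0.47 (SE 0.31, limma adjusted p = 0.795).

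RPS6A and RPS6B encode the S6 protein that S6 kinase phosphorylates downstream of TOR. RPS6A was at 335.1, 267.2, 314.4 and 344.0 FPKM and RPS6B at 336.7, 280.0, 279.7 and 328.5 FPKM, so the copies were at similar levels in every library. RPS5A, known for its activity in dividing cells and as ARABIDOPSIS MINUTE-LIKE1, was at 414.0, 319.4, 302.5 and 526.8 FPKM. RPS5B was at 180.8, 138.4, 120.6 and 156.6 FPKM, below RPS5A in every library. RPS18A and RPS13A, known as POINTED FIRST LEAVES genes, were at 380.6, 219.8, 238.6 and 255.1 FPKM and at 405.5, 264.8, 248.5 and 404.8 FPKM. RPS18C, which encodes the same protein sequence as RPS18A, was at 331.3, 263.4, 245.6 and 283.2 FPKM. RPS10B, a protein of the head of the small subunit, was at 381.7, 262.3, 210.1 and 407.3 FPKM, with the largest standard error of the 39 genes (log2 difference -0.11, SE 0.44).

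RACK1A, a WD-repeat scaffold on the small subunit that also has a reported role in microRNA accumulation, was at 293.7, 223.3, 201.3 and 311.1 FPKM. The groups overlapped (log2 difference -0.033, SE 0.36, limma adjusted p = 0.993). It held 65.2% to 74.1% of the FPKM of the 3 RACK1 genes in each library.

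Paralogues of a protein were next compared within each library, where the level that all ribosomal protein genes share cancels. The 39 genes form 17 pairs of paralogues, of which 3 share the L10 genes. The more abundant copy was the same in all 4 libraries for 14 of 17 pairs, with L24, S6 and S18 as the exceptions. The log2 ratio of the copies, taken on FPKM + 1, did not overlap between the genotypes for 9 of 17 pairs (52.9%), beside 39.7% of 174 pairs among the other cytosolic ribosomal protein genes. With 2 libraries against 2, the smallest p an exact two-sided permutation test can give is 0.333, so no pair can pass 0.05.

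The L3 pair differed most. Its log2 ratio of RPL3A to RPL3B was 4.97, 5.03, 6.07 and 6.28, a difference of 1.18 between the genotype means. RPL3B gave 2.92% and 2.76% of the L3 FPKM in Col-0 and 1.24% and 1.09% in mos2-2. The gap between genotypes was larger than that between replicates of either genotype. The coding sequences were 79.0% identical and shared no 36-base stretch.

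The L24 pair changed its order between the genotypes, as did the S6 pair. RPL24B was the more abundant copy in both Col-0 libraries and RPL24A in both mos2-2 libraries, with log2 ratios of -0.31, -0.55, 0.27 and 0.037. In mos2-2 replicate 2, RPL24A and RPL24B were at 368.4 and 359.1 FPKM, with counting errors of 2.14% and 2.32%. The order of the L24 copies in that library is thus within counting error. RPL24A gave 44.7%, 40.6%, 54.7% and 50.6% of the L24 FPKM. The difference between the genotype means of the ratio was 0.58. The 2 copies were 85.0% identical in coding sequence and shared no 36-base stretch.

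Of the L10 copies, RPL10C gave 26.1% and 25.7% of the L10 FPKM in Col-0 and 20.6% and 20.1% in mos2-2, while RPL10A gave 72.1%, 72.3%, 77.3% and 77.9%. The log2 ratio of RPL10A to RPL10C was 1.46, 1.49, 1.90 and 1.95, so replicates lay closer to each other than the genotypes did. RPL10B stayed between 1.83% and 2.11%. RPL5A gave 54.6% and 53.5% of the L5 FPKM in Col-0 and 58.9% and 59.3% in mos2-2, with log2 ratios to RPL5B of 0.27, 0.20, 0.52 and 0.54. Some 36-base stretches of these genes occur elsewhere in the genome: 5.6% for RPL10A, 8.90% for RPL10C, 2.16% for RPL5A and 10.45% for RPL5B. The split of reads in the L10 and L5 families is uncertain to that extent. The log2 ratio of RPS5A to RPS5B was 1.19, 1.20, 1.32 and 1.74, where mos2-2 replicate 2 stood apart. The 3 smaller differences without overlap were -0.23 for RPL8A over RPL8C, 0.15 for RPL9B over RPL9C and 0.15 for RPS6A over RPS6B. The log2 ratio of RPS6A to RPS6B was -0.0069, -0.068, 0.17 and 0.066. In Col-0 replicate 1 the S6 copies were at 335.1 and 336.7 FPKM, with counting errors of 2.57% and 2.54%. Their order in that library is thus within counting error.

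**Figure D5:**
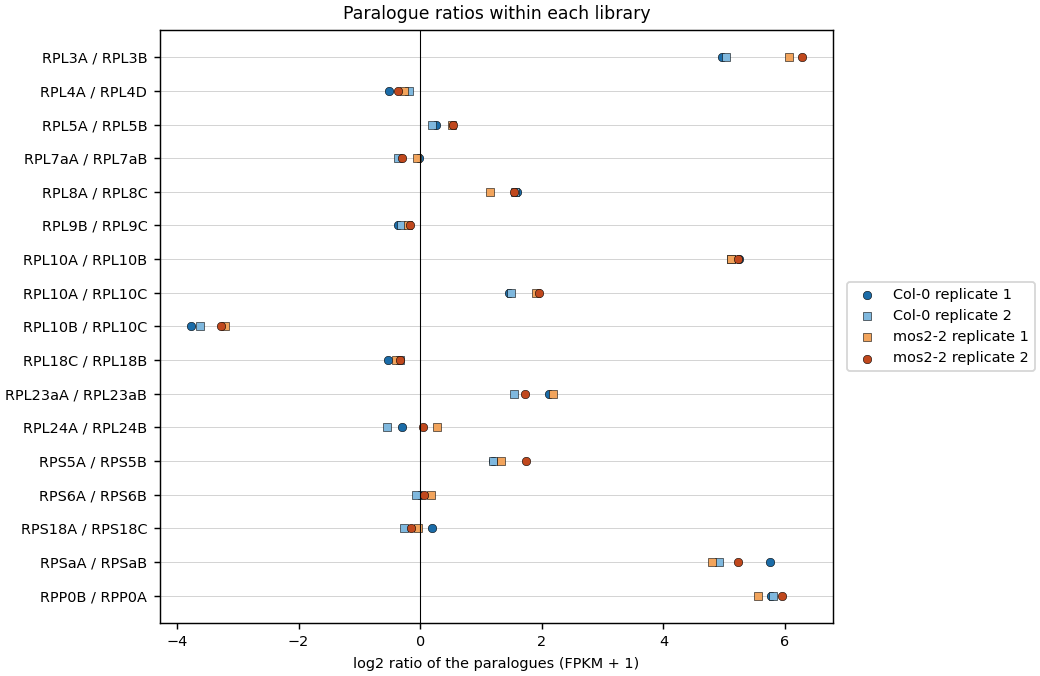
Log2 ratio of the paralogues of each pair (FPKM + 1) in each of the 4 libraries, for 17 pairs, with 0 marking equal levels. The L3 ratio is 4.97 and 5.03 in Col-0 and 6.07 and 6.28 in mos2-2. The L24 and S6 ratios lie below 0 in both Col-0 libraries and above 0 in both mos2-2 libraries, some of them within counting error of 0.

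The copies of L4, L7a, L18, L23a, S18, Sa and P0, and RPL10A against RPL10B, had ratios that overlapped between the genotypes. RPSaB, which alone was higher in both mutant libraries as a level, gave 1.62%, 2.96%, 3.22% and 2.42% of the Sa FPKM. RPP0A gave 1.27% to 1.68% of the P0 FPKM. Copies outside the 39 were at 0 in every library for L8 (AT3G51190) and L18 (AT2G47570). The third L9 gene, AT4G10450, was at 70.0, 57.2, 33.7 and 46.7 FPKM, lower in both mutant libraries as RPL9C was.

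Other genes of translation were read from the same fit. In the 5 lists, 0 genes passed an adjusted p of 0.05 (limma) and 1 had an unadjusted p under 0.05. Of the 177 other cytosolic ribosomal protein genes tested, 58 were higher and 119 lower, with a median log2 difference of -0.10, but 92 were higher and 85 lower under median-ratio scaling. The gene with the unadjusted p under 0.05, AT1G36240, a minor copy of L30, was at 0, 0.466, 2.09 and 2.02 FPKM. Among the 28 plastid ribosomal protein genes, 24 had a positive difference and 4 a negative one (median 0.21). The genotypes did not overlap for 3 of 28 (10.7%), all higher, beside 13.1% of all genes in that direction. Under median-ratio scaling they did not overlap for 13 of 28 (46.4%), all higher. Of the 19231 genes tested on that scale, 3854 lay in that direction. The median of the 28 stayed positive under every alternative scaling (0.25 to 0.32), but 7 were higher without Col-0 replicate 2 and 12 without mos2-2 replicate 1. AT3G54210, for plastid protein L17, was at 650.7, 446.8, 1096 and 780.0 FPKM. Ribosome biogenesis genes were higher for 4 and lower for 17 of the 21 tested, with a median of -0.052, but 12 were higher under median-ratio scaling. FIB1, a fibrillarin that methylates ribosomal RNA, was at 185.7, 140.1, 73.4 and 151.1 FPKM, with overlapping groups. NAP57, the pseudouridine synthase, was at 57.9, 64.8, 39.4 and 53.4 FPKM, lower in both mutant libraries. Translation factor genes were higher for 8 and lower for 12 of 20, with a median of -0.071, and 12 were higher under median-ratio scaling. TCTP, a growth-related protein, was at 1682, 1790, 1069 and 1118 FPKM. Of the 5 TOR pathway genes, 1 was higher and 4 were lower (median -0.10), and 3 were higher under median-ratio scaling.

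Each library was also scaled to the summed FPKM of the other cytosolic ribosomal protein genes, an alternative chosen after the data were seen, and 0 of the 39 genes passed the threshold. The genotypes then did not overlap for 17 of 39 genes (43.6%), beside 92 of the 177 other cytosolic ribosomal protein genes (52.0%). Over the 19241 genes tested it was 25.8%, with 1973 higher and 2998 lower. The scale is set by the other cytosolic ribosomal protein genes and takes out the shift between libraries that the 39 share with them. A share above that of all genes is therefore favoured by construction and says nothing about the 39. Of the 17, the 6 in the higher direction were RPL5A, RPL8C, RPL24A, RPP1A, RPL4D and RPL10B, with log2 differences of 0.084 to 0.38. The 11 in the lower direction were RPL3B (-1.08), RPS21C (-0.39), RPL9C (-0.38), RPL10C (-0.37), RPL24B (-0.32), RPL28A (-0.25), RPL9B (-0.23), RPL18B (-0.19), RPL18C (-0.12), RPS5B (-0.12) and RPP0B (-0.077). On this scale RPL24A lay in the higher and RPL24B in the lower direction, while RPL3A, RPL5B, RPL8A and RPL10A, the partners of RPL3B, RPL5A, RPL8C and RPL10C, overlapped between the genotypes.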

How the data were processed

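The authors' deposited tables give 1 FPKM value per locus and library, made with TopHat and Cuffdiff against TAIR10, per the submitters' processing notes, with no versions listed there. Per the labels' protocols, RNA was extracted with TRIzol, poly(A)-selected and sequenced on a Genome Analyzer IIx. No source used here states strand or read length. Depth was estimated from the steps between low FPKM values, taking transcript length minus 180 nt as effective length: about 4600000, 7400000, 7200000 and 7500000 reads (Col-0 replicates 1 and 2, mos2-2 replicates 1 and 2). Only 40.2% to 41.5% of low values lay within 0.1 of a whole read, so no count test was run, these depths are rough, and counting errors cover counting only.

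Values were compared as log2(FPKM + 1) with limma 3.58.1 in R 4.3.3 (mean-variance trend, mean of at least 1 FPKM, two-sided, Benjamini-Hochberg over all genes tested, threshold 0.05). A fold on this scale understates changes of low genes. The test was also run on data simulated from the means and spread of these libraries, with noise independent between genes. Such noise lacks the shift between replicates that the 39 genes shared. Alternatives changed the pseudocount, filter, scaling, trend, gene set, replicate block and libraries. TAIR10.1 from RefSeq supplied positions, exons and promoters for 32810 of the 33557 loci, and exon stretches of 36 bases were searched among all genes; 1 promoter sequence is not reported here. The members and lists were chosen with earlier results of these data known. Any of the 39 genes could be named, and of each other list at most 4 genes by smallest unadjusted p, with paralogues, MOS2 and the 5.8S locus.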

Additional observations from a re-analysis of the deposited data

How the results depend on the processing

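The count of the 39 genes past the threshold was 0 in each of the 14 alternatives, and at an unadjusted limma p under 0.05 it was 1 in each. The count of all genes past the threshold was 12, and it became 4 with a pseudocount of 5, 4 with no filter on low values, 7 with no mean-variance trend, 0 over nuclear protein-coding genes of at least 300 nt, 36 after scaling to the other cytosolic ribosomal protein genes (chosen after the data were seen) and 0 without any single library, so it ranged from 0 to 0 there. With the replicate number as a block it was 6, and the block changed no call among the 39 genes. The labels give the numbers no shared origin, and deviations of same-numbered libraries correlated at 0.211 over all genes and -0.012 over the 39.

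Of the 39, 16 were higher and 23 lower. With single libraries left out, 3 to 31 were higher and 8 to 36 lower, and 15 were lower under median-ratio scaling, which moved the median of all genes from -0.091 to 0.0087, as quantile normalization moved it to 0.013. The median log2 difference of the 39 ran from -0.30 to 0.17 with single libraries left out. Paralogue pairs without overlap between the genotypes numbered 9, and 11 to 15 with single libraries left out, where the count can only stay or rise by construction. The log2 difference of MOS2 was -3.99 with a limma adjusted p of 0.00273 after scaling to the other cytosolic ribosomal protein genes.

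None of the differences that follow passed the threshold in any setting, and the cause of the sign changes was not tested. Under median-ratio scaling the log2 difference became positive for RPL5B (0.048), RPL10A (0.11), RPL13B (0.074), RPL23aA (0.026), RPS6B (0.094), RPS10B (0.000196), RPS13A (0.066) and RACK1A (0.079). Quantile normalization gave positive values for RPS6B (0.039), RPS13A (0.0025) and RACK1A (0.034). Scaling to the other cytosolic ribosomal protein genes did so for RPL5B (0.019), RPL10A (0.082), RPL13B (0.045), RPS6B (0.065), RPS13A (0.037) and RACK1A (0.050). Leaving out single libraries gave both signs for 30 genes, with log2 differences of RPL3A -0.14 to 0.20, RPL4A -0.10 to 0.26, RPL4D -0.18 to 0.28, RPL5A -0.043 to 0.51, RPL5B -0.31 to 0.18, RPL7aA -0.30 to 0.36, RPL7aB -0.21 to 0.22, RPL8A -0.34 to 0.47, RPL10A -0.33 to 0.33, RPL10B -0.26 to 0.26, RPL13B -0.28 to 0.20, RPL18C -0.43 to 0.021, RPL18B -0.60 to 0.046, RPL23aA -0.41 to 0.23, RPL23aB -0.50 to 0.059, RPL24A -0.14 to 0.49, RPL27aC -0.32 to 0.47, RPL28A -0.68 to 0.016, RPS5A -0.26 to 0.53, RPS6A -0.027 to 0.30, RPS6B -0.15 to 0.11, RPS10B -0.59 to 0.36, RPS13A -0.40 to 0.30, RPS18A -0.62 to 0.17, RPS18C -0.33 to 0.0017, RPSaA -0.23 to 0.38, RPP0B -0.44 to 0.12, RPP0A -0.41 to 0.17, RPP1A -0.16 to 0.54 and RACK1A -0.35 to 0.28. The sign held for the other 9 genes, RPL3B, RPL8C, RPL9B, RPL9C, RPL10C, RPL24B, RPS5B, RPS21C and RPSaB, in every alternative run. For RPL9B and RPS5B it held only in name. Without Col-0 replicate 1 their log2 differences were -2.52e-05 and -0.010, and that of RPS5B was -0.014 without mos2-2 replicate 1.

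Depth limited the genes of low level most: the counting error of a single level was at most 15.1%, with a median of 2.30% over the 39 genes.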
